A study of Homo sapiens with 4 samples.

Results

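The 10 genes described here encode enzymes that place activating marks on histones: the H3K4 methyltransferases KMT2A, KMT2B, KMT2C, KMT2D, SETD1A and SETD1B, the H3K36 methyltransferases SETD2 and NSD1, and the acetyltransferases CREBBP (CBP) and EP300 (p300). The list was given by name, and each symbol was matched through its Ensembl identifier to the 60564 gene identifiers of the count files. All 10 were found, and all 10 passed the filter on low counts that left 22555 genes for testing. CREBBP and EP300 were also singled out by the study from these same samples as genes raised in 3-D culture, so their direction is not independent evidence.

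Histone methyltransferases of the KMT2 and SETD1 families work inside large COMPASS complexes, in which shared core subunits stimulate a catalytic subunit to methylate lysine 4 of histone H3 at promoters and enhancers. SETD2 and NSD1 methylate lysine 36 of histone H3 along gene bodies and between genes, and CBP and p300 acetylate histones, including lysine 27 of histone H3, at active enhancers and promoters. In pluripotent cells these marks lie at the enhancers of pluripotency genes and, together with a repressive mark, at the bivalent promoters of developmental genes.

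The cells were Elf1, a human embryonic stem cell (ESC) line described as naïve, and both conditions used ESC expansion medium. The study maintained the line on mouse embryonic feeder cells and moved it to Matrigel before encapsulation. The 2-D cells grew attached to plastic coated with Matrigel, whereas the 3-D cells were seeded as single cells into a self-assembling scaffold of PEG-8-SH and PEG-8-Acr and kept there for 21 days. The study describes 2-D cultures as passaged every few days, so that the scaffold, the geometry and the time without passage cannot be told apart. Each condition had 2 independent biological replicates of this 1 line, and p-values measure only the spread between these libraries.

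Library totals ranged from 18276147 to 33833778 counts, and the 2-D libraries were the deeper ones. Mitochondrial genes took 5.30% and 5.10% of the counts in 2-D and 8.50% and 8.33% in 3-D. Core pluripotency genes were abundant, in counts scaled to library size (CPM). Summed levels over 6 markers were 3395 to 3427 CPM in 2-D and 3340 to 3451 CPM in 3-D. LIN28A, at 1721 to 1812 CPM, held the largest part of the sum. Log2 fold changes were 0.04 for POU5F1, 0.08 for NANOG, 0.14 for SOX2 and 0.0008 for LIN28A. DPPA4 had -0.09 and SALL4 -0.03, and none of the 6 was called. Of the 7 naïve markers, 6 were tested and DPPA5 was below the filter. KLF5 lay between 46.9 and 57.2 CPM and was called higher in 3-D (log2 fold change 0.26). TFCP2L1, DNMT3L, KLF4 and DPPA3 lay between 5.75 and 23.8 CPM, and KLF17 lay between 0.46 and 1.07 CPM. None of these was called, with log2 fold changes of -0.06, -0.06, 0.09, -0.07 and 0.51 in that order. Summed over 5 primed markers the level was 1085 to 1104 CPM in 2-D and 1098 to 1134 CPM in 3-D, from DUSP6 at 1.86 to 3.29 CPM to CD24 at 868.1 to 905.6 CPM. The primed markers SFRP2 (log2 fold change 0.28) and THY1 (0.22) were called higher in 3-D, and ZIC2 (0.12), DUSP6 (0.49) and CD24 (-0.02) were not called. Genes of other cell types were also summed. Over the 3 tested endoderm markers the level was 7.69 to 7.78 CPM in 2-D and 9.24 to 9.65 CPM in 3-D. Over the 4 tested fibroblast markers it was 453.2 to 461.0 and 461.3 to 503.3 CPM, mostly from COL1A2 and COL1A1. COL1A1 and COL3A1 were called higher in 3-D. COL1A2 (log2 fold change -0.04) and PDGFRB (0.02) were not called, and LUM and DCN were below the filter. Summed levels ranged from 66.2 to 66.6 CPM in 2-D and 71.0 to 71.3 CPM in 3-D over 4 of 5 mesoderm markers. HAND1, at 0.61 to 0.68 CPM in 2-D and 1.265 to 1.283 CPM in 3-D, had a log2 fold change of 0.98. TBXT, MIXL1 and EOMES had 0.19, 0.06 and -0.04, and none of the 4 was called. Over 3 of 5 neural ectoderm markers the summed levels were 582.5 to 588.8 CPM in 2-D and 605.4 to 607.6 CPM in 3-D. Nearly all of this was NES, at 576.8 to 582.5 CPM in 2-D and 599.4 to 602.3 CPM in 3-D. Mean levels in 2-D and 3-D were 5.44 and 4.89 CPM for TUBB3 and 0.548 and 0.745 CPM for PAX6. None of these 3 was called, and SOX1 and OTX1 were below the filter. Over 3 of 6 trophoblast markers the summed levels were 3.02 to 3.70 CPM in 2-D and 3.46 to 3.85 CPM in 3-D. CGA and VGLL1 had no counts in any library. The part of these markers in the results below was not tested.

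Levels per library are CPM after TMM scaling, which corrects library size for differences in composition. Fold changes compare 3-D with 2-D grown cells, and ± gives the SD of 2 libraries. A gene is called where its p from edgeR's quasi-likelihood test, adjusted by the Benjamini-Hochberg (BH) procedure over all tested genes, is below 0.05, and SE is the standard error of its log2 fold change. Of the 10 enzymes, 5 were called higher in 3-D grown cells and 0 lower: KMT2B, SETD1A, SETD1B, CREBBP and EP300. Among all tested genes 7.90% were called, 1024 higher and 758 lower, and 4.54% were called higher. Under TMM scaling both 3-D libraries lay above both 2-D libraries in all 10 enzymes, as they did in 25.4% of all tested genes. This share rose with level among tested protein-coding genes. It was 34.5% at 50 to 100 CPM, 42.0% at 100 to 200 CPM and 51.3% above 200 CPM, the range in which the 10 enzymes lay. The median log2 fold change of the 10 was 0.13, against -0.00014 over all tested genes. With library size as the only scaling, the median over all tested genes was -0.065 and that of the 10 was 0.068, the log2 fold change of NSD1 turned to -0.01, and the genes called numbered 514 higher and 1879 lower. RNA was taken from whole cultures, so more RNA per cell and more cells of a type that holds it cannot be told apart, and neither the proteins nor the histone marks were measured.

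**Figure D1:**
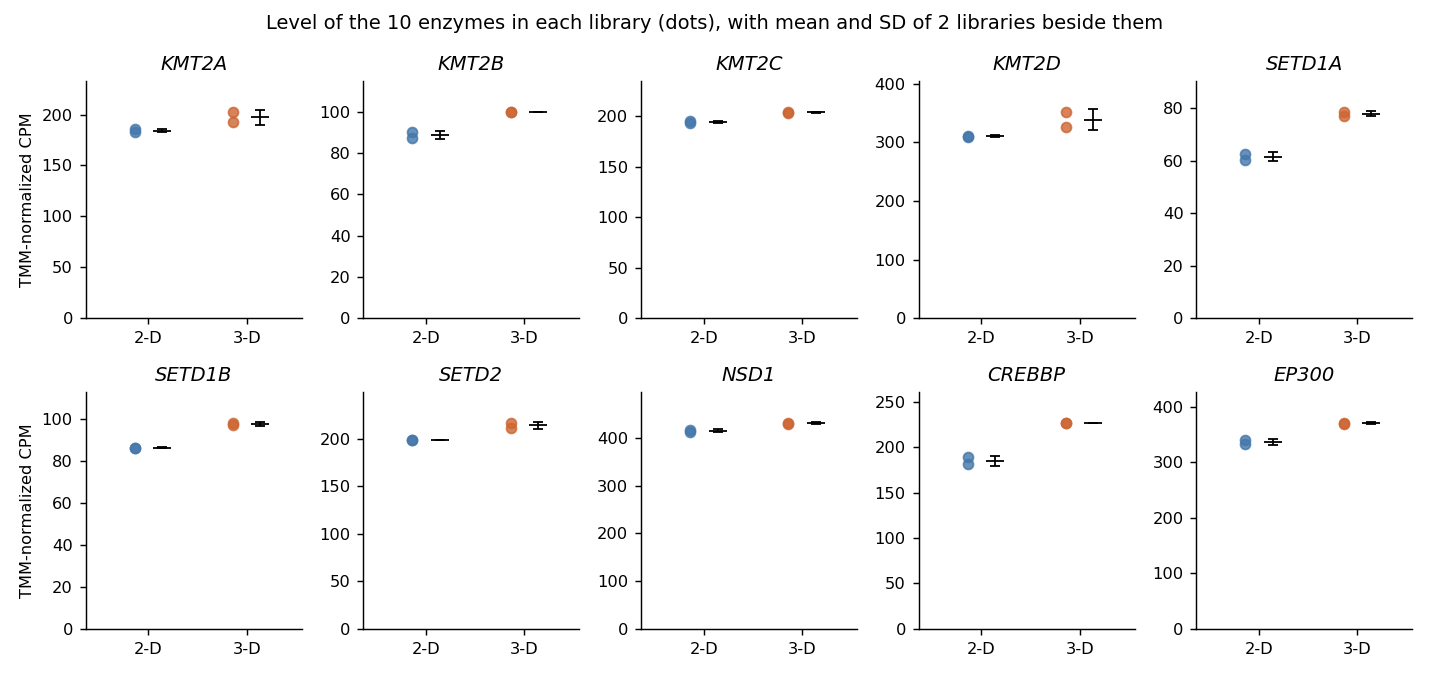
TMM-normalized CPM (vertical axes, each from 0) of the 10 enzymes in the 2-D (blue) and 3-D (orange) libraries, with the mean and SD of 2 libraries beside the dots. Under this scaling both 3-D dots lie above both 2-D dots in every panel (NSD1 turned to -0.01 on the log2 scale with library size only), with the widest gap relative to level in SETD1A, from 61.5 to 77.9 CPM.

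SETD1A and SETD1B are the catalytic subunits of the complexes that place most H3K4 trimethylation at active promoters. SETD1A, on chromosome 16 from 30957294 to 30984664 of hg38, was at 60.3 and 62.8 CPM in the 2-D libraries and at 78.6 and 77.2 CPM in the 3-D libraries. Both 3-D libraries lay well above the 2-D libraries, with a mean of 77.9 ± 1.01 against 61.5 ± 1.75 CPM. This was the largest change among the 10, a rise of 26.7% with a log2 fold change of 0.34 (SE 0.038, edgeR quasi-likelihood, BH-adjusted p = 0.000205). SETD1A was called under each of the 17 alternative settings, with values from 0.27 to 0.37.

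SETD1B, on chromosome 12 from 121804009 to 121832656, was at 86.4 and 86.1 CPM in 2-D and at 97.1 and 98.3 CPM in 3-D. The libraries of a condition were close together and did not overlap with those of the other. The log2 fold change was 0.18 (SE 0.032, edgeR quasi-likelihood, BH-adjusted p = 0.0045). Its call was lost with DESeq2 and without 2-D replicate 2 (adjusted p = 0.055), and with offsets for transcript length and GC content, where the value dropped to 0.10 (edgeR quasi-likelihood, BH-adjusted p = 0.0811).

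KMT2A, known as MLL1, maintains the activity of HOX genes, and its paralogue KMT2B trimethylates H3K4 at bivalent promoters in ESCs. KMT2B, on chromosome 19 from 35717973 to 35738880, was at 90.2 and 87.5 CPM in 2-D and at 99.99 and 99.79 CPM in 3-D. Its 3-D libraries were nearly equal and both above 2-D, with a log2 fold change of 0.17 (SE 0.033, edgeR quasi-likelihood, BH-adjusted p = 0.00774). The call of KMT2B was lost with DESeq2, with library size only, without 2-D replicate 2 (adjusted p = 0.145), and with length and GC offsets, where the value was 0.09 (edgeR quasi-likelihood, BH-adjusted p = 0.144).

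KMT2A, on chromosome 11 from 118436456 to 118526832, was at 185.3 and 183.0 CPM in 2-D and at 202.5 and 192.2 CPM in 3-D. The 3-D libraries were both higher but lay further apart than the 2-D libraries. A log2 fold change of 0.10 did not pass the threshold (95% confidence interval 0.03 to 0.17, edgeR quasi-likelihood, BH-adjusted p = 0.0895). Without 3-D replicate 2 it was 0.14 and was called (edgeR quasi-likelihood, BH-adjusted p = 0.00063), and without 3-D replicate 1 it was 0.06.

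KMT2C and KMT2D, known as MLL3 and MLL4, place H3K4 monomethylation at enhancers. For KMT2D, on chromosome 12 from 49018975 to 49060794, the libraries read 311.5 and 309.3 CPM in 2-D and 352.1 and 326.0 CPM in 3-D. The 3-D replicates differed more from each other than in any other member, with an SD of 18.4 CPM. The log2 fold change of 0.13 narrowly missed the threshold (SE 0.037, edgeR quasi-likelihood, BH-adjusted p = 0.054). It was 0.18 without 3-D replicate 2, where it was called (edgeR quasi-likelihood, BH-adjusted p = 1.99e-06), 0.07 without 3-D replicate 1, and 0.05 with length and GC offsets.

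In KMT2C, on chromosome 7 from 152134922 to 152436644, the levels were 194.9 and 193.7 CPM in 2-D and 204.2 and 203.5 CPM in 3-D. These differences were small and regular, with a log2 fold change of 0.07 that was not called (95% confidence interval 0.01 to 0.13, edgeR quasi-likelihood, BH-adjusted p = 0.189). KMT2C was also the 1 member with near-identical copies elsewhere in the genome. Of 961 exonic windows of 150 bases, 93 (9.68%) had a copy of at least 98% identity on chromosomes 1, 2, 13, 21 or 22, and 43 had one on an alternate contig, so its counts are uncertain. No window of the other 9 genes had such a copy.

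SETD2, the enzyme for H3K36 trimethylation along transcribed genes, lies on chromosome 3 from 47016428 to 47164113. Its libraries read 199.2 and 198.9 CPM in 2-D and 217.2 and 211.4 CPM in 3-D. All 3-D values were above the 2-D values, and the log2 fold change of 0.11 stood just outside the call (SE 0.030, edgeR quasi-likelihood, BH-adjusted p = 0.0505). SETD2 was called in 6 of the 17 alternatives. Leaving out 3-D replicate 1 or 2 gave calls (edgeR quasi-likelihood, BH-adjusted p = 0.0371 and 0.00127), and leaving out 2-D replicate 1 or 2 did not (0.328 and 0.355).

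NSD1, on chromosome 5 from 177131830 to 177300213, dimethylates H3K36. It was at 416.9 and 413.4 CPM in 2-D and at 431.9 and 430.0 CPM in 3-D, the smallest log2 difference of the 10. The groups did not overlap, but the interval of the log2 fold change of 0.05 included 0 (-0.01 to 0.12, edgeR quasi-likelihood, BH-adjusted p = 0.326). NSD1 was called under none of the 17 alternatives.

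CBP, the product of CREBBP, and p300 are closely related coactivators that many transcription factors recruit to enhancers. CREBBP, on chromosome 16 from 3725054 to 3880713, was at 188.7 and 181.3 CPM in 2-D and at 227.0 and 226.8 CPM in 3-D. The 3-D libraries were almost equal and far above the 2-D libraries, with means of 226.9 ± 0.118 and 185.0 ± 5.28 CPM. CREBBP rose by 22.6%, a log2 fold change of 0.29 (SE 0.032, edgeR quasi-likelihood, BH-adjusted p = 0.000171), and was called under each of the 17 alternatives.

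EP300, on chromosome 22 from 41092592 to 41180077, was at 333.4 and 340.4 CPM in 2-D and at 371.7 and 369.3 CPM in 3-D. Both 3-D libraries were higher, by less than in CREBBP. The log2 fold change was 0.14 (SE 0.030, edgeR quasi-likelihood, BH-adjusted p = 0.0138). EP300 kept its call with DESeq2 and with length and GC offsets. It lost the call with library size only, where the value was 0.07, without 2-D replicate 1 (adjusted p = 0.214) and without 2-D replicate 2 (edgeR quasi-likelihood, BH-adjusted p = 0.087).

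**Figure D2:**
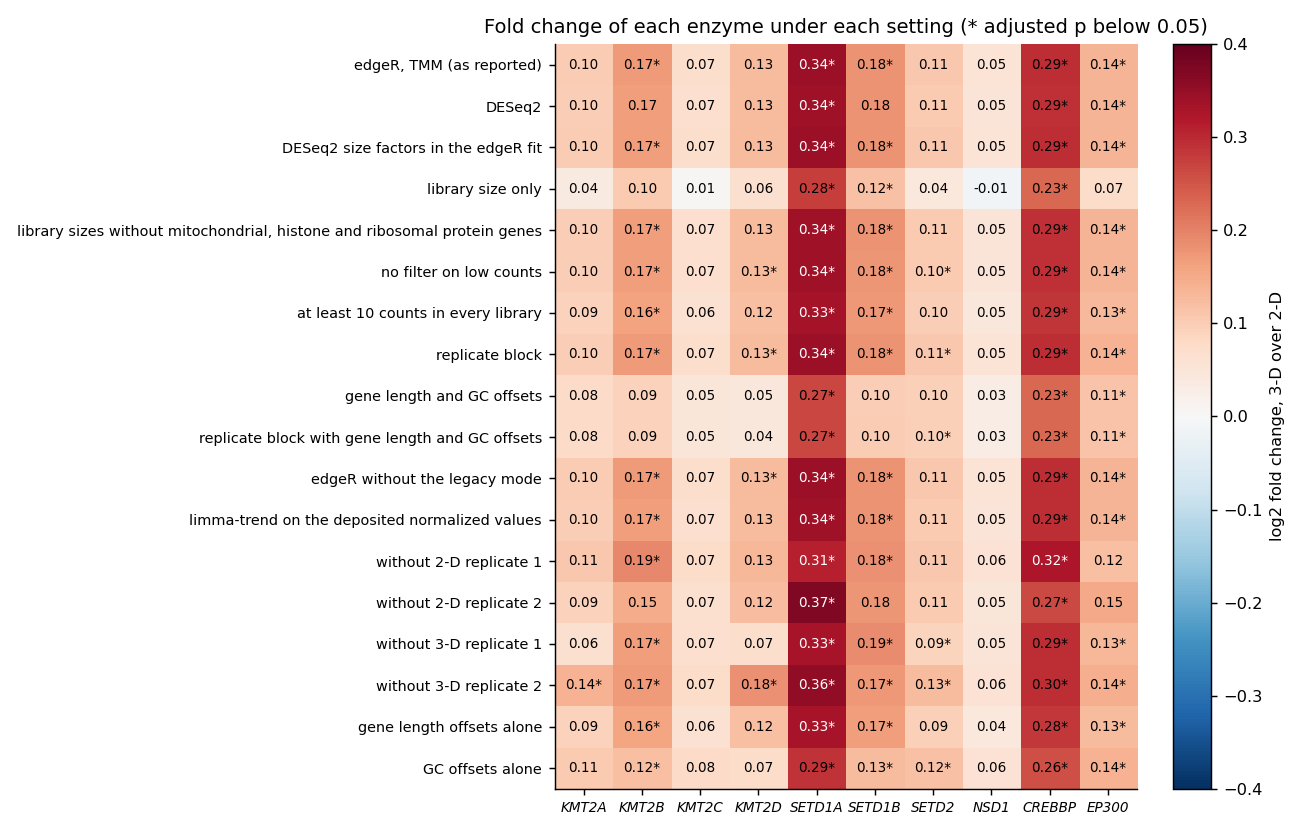
Log2 fold change, 3-D over 2-D, of each enzyme (columns) under the reported fit and 17 alternatives (rows), colored by value, with an asterisk where the adjusted p was below 0.05. The columns of SETD1A and CREBBP carry an asterisk in every row, those of KMT2C and NSD1 in none, and NSD1 has the single negative value, -0.01, with library size only.

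The promoters of the acetyltransferase pair and of NSD1 are shown because CREBBP and NSD1 lay at opposite ends of the changes for which a window upstream of the annotated exons could be read, and EP300 is the paralogue of CREBBP. Each sequence is the 250 bases before the RefSeq start (GRCh38.p14), written 5′ to 3′ in the direction of the gene, with copies of the GC box, GGGCGG or its reverse complement, in capitals. The CREBBP window is chr16:3880714-3880963 on the minus strand, the EP300 window is chr22:41092342-41092591 on the plus strand, and the NSD1 window, the first of several listed, is chr5:177131548-177131797 on the plus strand.
CREBBP: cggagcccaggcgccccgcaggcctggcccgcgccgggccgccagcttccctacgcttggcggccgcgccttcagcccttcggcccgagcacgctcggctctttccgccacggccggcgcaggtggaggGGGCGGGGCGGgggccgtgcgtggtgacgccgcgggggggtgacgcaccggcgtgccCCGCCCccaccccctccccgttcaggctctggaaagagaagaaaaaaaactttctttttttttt
EP300: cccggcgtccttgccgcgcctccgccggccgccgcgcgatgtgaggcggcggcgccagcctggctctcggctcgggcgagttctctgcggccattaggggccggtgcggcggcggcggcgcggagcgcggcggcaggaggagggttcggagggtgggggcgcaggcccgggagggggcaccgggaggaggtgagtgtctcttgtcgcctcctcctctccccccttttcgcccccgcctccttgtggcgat
NSD1: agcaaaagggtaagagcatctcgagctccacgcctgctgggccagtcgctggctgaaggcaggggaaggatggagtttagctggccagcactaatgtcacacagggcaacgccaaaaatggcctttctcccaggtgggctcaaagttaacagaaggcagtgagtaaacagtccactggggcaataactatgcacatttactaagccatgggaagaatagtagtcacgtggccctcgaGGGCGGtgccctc
GC content was 72.4% in the CREBBP window, 76.8% in the EP300 window and 54.4% in the NSD1 window, against a median of 58% over 35116 promoter windows. The CREBBP window held 3 GC boxes, of which a pair overlap, the NSD1 window held 1 and the EP300 window 0. Windows were available for 9 of the 10 members, SETD1B being the exception.

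Of the 9 windows, 4 overlap exons annotated to their own gene, that of SETD1A over its whole length. Searched on both strands, the GC box was in 8 of the 9 windows, in 4 of the 5 free of such exons, and in 42.6% of all windows. The E-box CACGTG was in 2 of the 9, NSD1 and KMT2D, and in 6.34% of all windows. None of the 9 windows held the CCAAT box (CCAAT, 32.0% of all windows), the ETS core CCGGAAG (8.52%), the NRF1 core CGCATGCG (1.73%), the TATA box TATAAA (10.7%) or the letters CTTTGAT of the TCF and LEF core (2.26%). These are matches of letters and say nothing of binding. Apart from NSD1 at 54.4%, the windows of members had a GC content of 65.2% (SETD1A) to 92.0% (KMT2C). The median over all windows was 58%, and the shares over all windows were not matched for GC content.

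Levels were ranked between the enzymes per length, as CPM per kilobase of merged exons of GENCODE release 44. On that scale EP300 was highest, at 28.8 ± 0.427 CPM per kilobase in 2-D and 31.7 ± 0.145 in 3-D, followed by NSD1 at 19.0 ± 0.112 and 19.8 ± 0.0615. SETD2, KMT2D and CREBBP lay between 12.0 and 13.9 in 2-D, and the libraries of KMT2D and CREBBP overlapped there. In 3-D CREBBP stood above KMT2D, at 14.7 ± 0.00762 against 13.3 ± 0.725 CPM per kilobase, the only change of order among the 10. SETD1B, SETD1A and KMT2B followed at 10.1, 8.81 and 8.22 in 2-D, and KMT2A and KMT2C were lowest at 5.85 and 3.64. The range over the 10, as the ratio of the highest to the lowest mean over libraries, was 8.10. It was 3.75 when the longest transcript was used as length, since merged exons of KMT2C span 53322 bases and its longest transcript 16860. By that length KMT2C stood 6th of the 10 and SETD1A lowest in 2-D, whereas in 3-D the libraries of KMT2C, SETD1A, KMT2A and KMT2B overlapped from neighbour to neighbour.

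The ratio of paired enzymes within a library does not depend on how libraries are scaled. SETD1A counts were 0.698 and 0.729 of those of SETD1B in 2-D and 0.81 and 0.785 in 3-D, a log2 ratio of -0.49 ± 0.045 against -0.33 ± 0.031. CREBBP counts were 0.566 and 0.533 of those of EP300 in 2-D and 0.611 and 0.614 in 3-D, or -0.86 ± 0.063 against -0.71 ± 0.006. Both ratios were higher in both 3-D libraries, by 0.16 on the log2 scale in each case. KMT2A over KMT2B was lower in 3-D by a difference of -0.07 and SETD2 over NSD1 higher by 0.05, again without overlap of libraries. KMT2C over KMT2D was lower by -0.06, which became -0.0040 without 3-D replicate 1. For each of the 5 pairs the exact permutation test (two-sided, 2 against 2 libraries) gave p = 0.333, the smallest value that this design allows, which was also its Benjamini-Hochberg adjusted value over the 5 pairs.

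**Figure D3:**
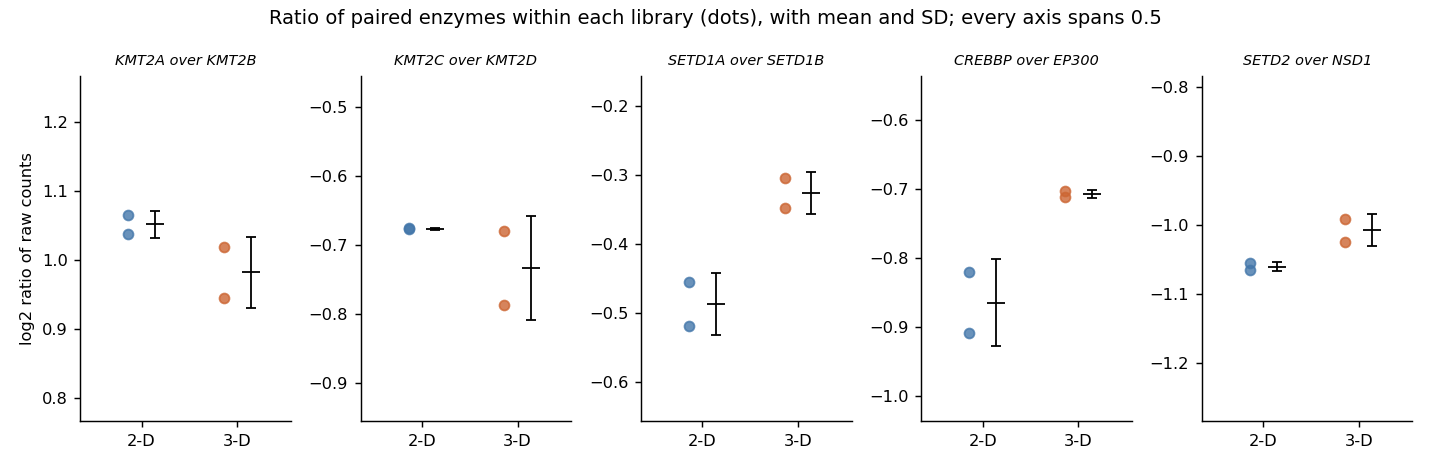
Log2 ratio of raw counts (vertical axes, each spanning the same width) for 5 pairs of enzymes in the 2-D (blue) and 3-D (orange) libraries, with the mean and SD of 2 libraries. SETD1A over SETD1B and CREBBP over EP300 were higher by 0.16 in 3-D, and 1 of the 3-D libraries of KMT2C over KMT2D lay beside the 2-D libraries.

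Subunits and related enzymes were read from lists of 56 genes, all tested, of which 7 (12.5%) were called higher and 0 lower in 3-D. Among all tested genes 4.54% were called higher. By level, the share among protein-coding genes was 0.53% to 3.39% in bins below 50 CPM and 10.2% to 23.6% in bins above it. The 56 genes lay in both ranges. The shared COMPASS core, which all 6 H3K4 methyltransferases of the list need, had 0 of 4 genes called. WDR5, the scaffold of the core, had a log2 fold change of 0.04, while RBBP5, ASH2L and DPY30 had -0.06, -0.05 and -0.05. Their median of -0.05 lay below that of the 6 catalytic subunits, 0.15, and the difference between the lists was not tested.

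Of 4 subunits of KMT2A and KMT2B complexes, 2 were called. PSIP1, the chromatin tether LEDGF, rose from 344.7 and 339.8 CPM to 410.8 and 379.8 CPM, a log2 fold change of 0.21 (edgeR quasi-likelihood, BH-adjusted p = 0.00444). HCFC1, a cofactor of KMT2A, KMT2B and the SETD1 complexes, rose from 360.9 and 360.0 to 413.7 and 423.6 CPM, with 0.22 (edgeR quasi-likelihood, BH-adjusted p = 0.000916). In both genes the 3-D libraries lay above the 2-D libraries, and both were called under each of the 17 alternatives. MEN1, which encodes menin, had 0.07 and the lowly expressed HCFC2 -0.10, neither called.

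In the KMT2C and KMT2D complexes, the coactivator NCOA6 rose from 30.9 and 30.6 CPM to 36.4 and 39.7 CPM, a log2 fold change of 0.31 (SE 0.063, edgeR quasi-likelihood, BH-adjusted p = 0.0101), and was called under each of the 17 alternatives. The H3K27 demethylase KDM6A had -0.02, PAXIP1 0.09 and PAGR1 -0.16, none of them called. Among SETD1 complex subunits, BOD1L1 rose from 330.8 and 331.3 to 373.3 and 364.8 CPM, a log2 fold change of 0.16 (edgeR quasi-likelihood, BH-adjusted p = 0.00654). Its call was lost with library size only and in 2 of the 4 fits that left out a library. The CpG-binding subunit CXXC1 had 0.09, BOD1 0.09 and WDR82 -0.12 (edgeR quasi-likelihood, BH-adjusted p = 0.0543 for WDR82), and WDR82 was called lower in 8 of the 17 alternatives.

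Among 6 other methyltransferases of activating marks, 2 were called: ASH1L, an H3K36 methyltransferase, at 0.12 (adjusted p = 0.0309), and DOT1L, which methylates H3K79, at 0.15 (edgeR quasi-likelihood, BH-adjusted p = 0.0496). DOT1L was called in 3 and ASH1L in 9 of the 17 alternatives. Of 10 other histone acetyltransferases, KAT6B alone was called. It was at 81.8 and 83.9 CPM in 2-D and at 95.4 and 91.7 CPM in 3-D, a log2 fold change of 0.18 (edgeR quasi-likelihood, BH-adjusted p = 0.00898). This call was lost with DESeq2, with library size only and without 2-D replicate 1, in 3 of the 17 alternatives.

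Enzymes that remove these marks were also read, against 7.90% of all tested genes called and 21.3% with an unadjusted p below 0.05. Of 10 demethylases of H3K4 and H3K36, 0 were called by edgeR's quasi-likelihood test and 1 had an unadjusted p below 0.05, with log2 fold changes from -0.05 to 0.09 and a median of 0.02. Of 14 histone deacetylases, 0 were called by the same test and 4 had an unadjusted p below 0.05, with values from -0.11 to 0.14 and a median of 0.07. DESeq2 called 0 in both lists. Among tested protein-coding genes below 5 CPM, 0.53% were called higher and 0.614% lower. Above 200 CPM these shares were 23.6% and 9.82%. The demethylases lay from 14.2 to 363.3 CPM and the deacetylases from 1.20 to 345.9 CPM. Whether 0 calls differ from the share at these levels was not tested. KDM1A and HDAC1 are named after their values were seen. KDM1A, at 0.09, was called higher when either 3-D library was left out. HDAC1 had -0.11 (edgeR quasi-likelihood, BH-adjusted p = 0.0585) and was called lower in 6 of the 17 alternatives. With library size as the only scaling the medians were -0.04 and 0.0060, and those of the other methyltransferases and other acetyltransferases, 0.06 and 0.06 here, became -0.0020 and -0.0070.

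**Figure D4:**
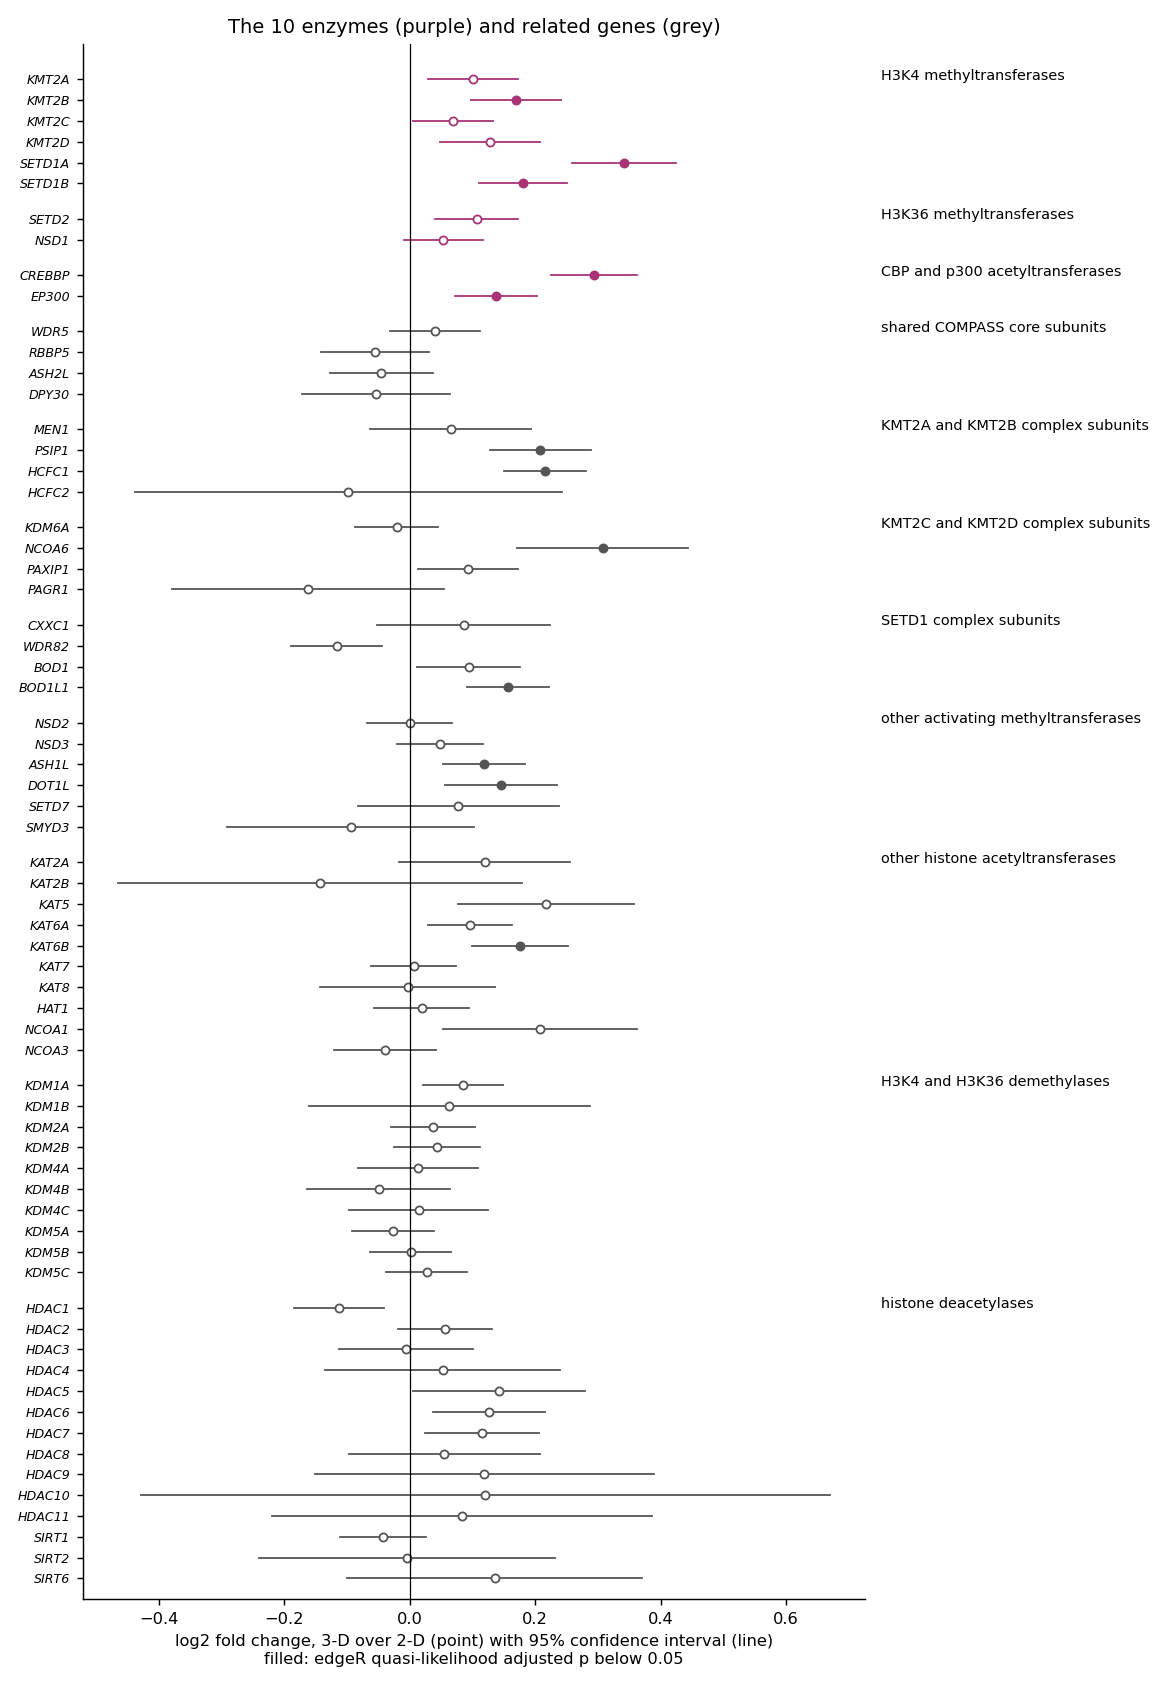
Log2 fold change, 3-D over 2-D (horizontal axis), with 95% confidence intervals for the 10 enzymes (purple) and 56 related genes (grey) by list, filled where the adjusted p was below 0.05. Filled points were all to the right of 0, and the demethylases and deacetylases had none.

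The 10 enzymes share a few properties that the list did not use. All were long, with longest transcripts of 6.5 to 20.7 kilobases that exceeded those of 87.0% to 99.4% of tested genes, and all had high counts, above those of 85.7% to 98.7% of tested genes in mean CPM, which is not corrected for length. GC content ran from 43.6% in SETD2 to 63.5% in KMT2B. Over tested protein-coding genes the share called higher rose with level, from 0.53% below 5 CPM to 10.2% at 50 to 100 CPM, 18.3% at 100 to 200 CPM and 23.6% above 200 CPM. It was 7.31% among transcripts of at least 8 kilobases. By GC content the median log2 fold change went from -0.04 below 40% to 0.07 at 60% and above, where 8.13% of genes were called higher and 1.22% lower.

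Offsets for transcript length and GC content, fitted together, left 3 of the 10 enzymes called, SETD1A at 0.27, CREBBP at 0.23 and EP300 at 0.11, and a median of 0.09 over the 10. GC content alone left the same 5 genes called and added SETD2, with KMT2B at 0.12, SETD1B at 0.13 and KMT2D, not called, at 0.07. Transcript length alone left the same 5 genes called. Leaving mitochondrial, histone and ribosomal protein genes out of the scaling also left the same 5 genes called, with a median of 0.13.

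**Figure D5:**
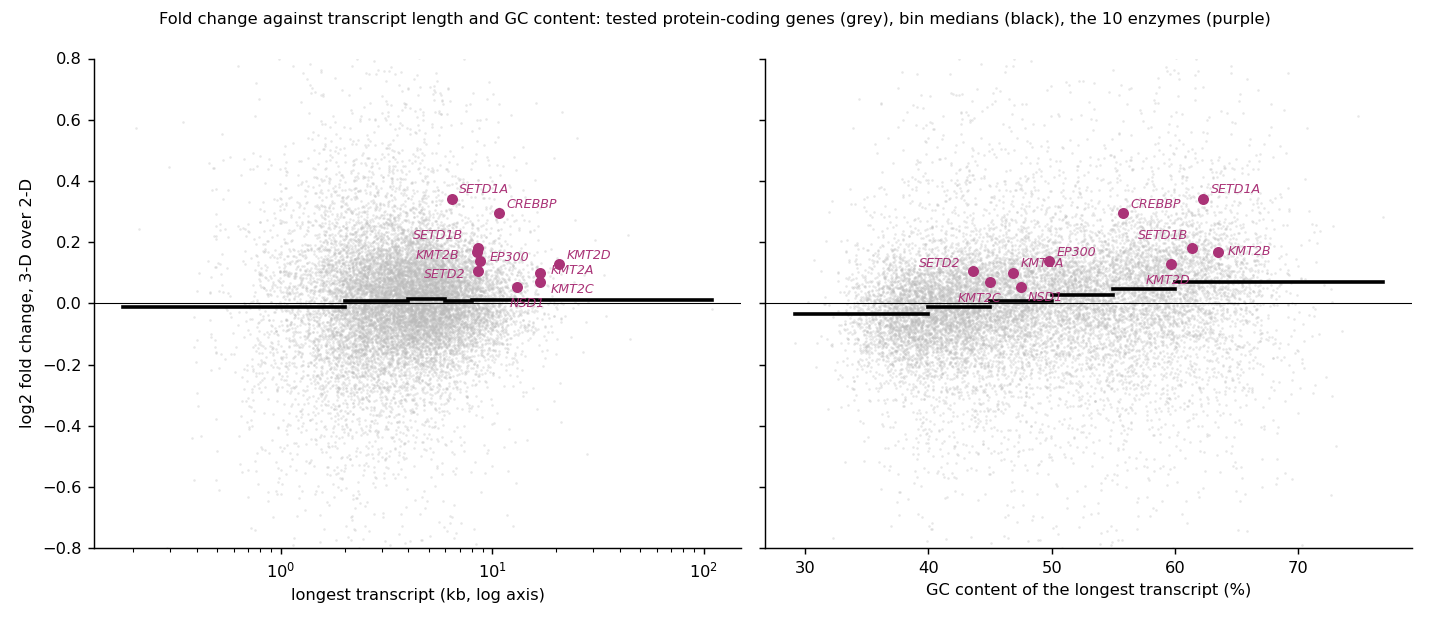
Log2 fold change, 3-D over 2-D (vertical axis, drawn from -0.8 to 0.8), against the length of the longest transcript (left, log axis) and its GC content (right) for tested protein-coding genes (grey), with medians of bins (black) and the 10 enzymes (purple). The bin medians rose with GC content from -0.04 to 0.07, and each of the 10 enzymes lay above the median of its bin in both panels.

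Overlapping genes could add reads to the members or take reads from them. The strand setting of the counting and its handling of shared reads were not given in the sources used here. Among overlapping genes with a count in the files, the largest count of a gene sharing exonic bases with a member was 3.75% of the member's own, for TTC36-AS1 in KMT2A. The longest shared stretch was 5755 exonic bases, between KMT2A and the protein-coding gene ENSG00000285827 on the same strand, which had 34 counts. Such counts do not measure the reads that fell in shared bases, and the effect on the members was not tested. Markers of proliferation moved in both directions, with MKI67 called higher (log2 fold change 0.27) and CDK1 called lower (-0.21) among 6.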

How the data were processed

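Total RNA of Elf1 cells was depleted of ribosomal RNA (KAPA RNA HyperPrep with RiboErase) and sequenced with paired ends in 4 libraries. The authors trimmed reads with Trim Galore 0.6.3, mapped them to hg38 with HISAT2 2.1.0 and counted them on GENCODE release 30 with featureCounts 1.6.4. Deposited were the raw counts of each library, neither normalized nor pooled. A further deposited table gives a normalized signal, for which the authors divided each count by the size factor of its library (DESeq2, Galaxy version 2.11.40.6). The same table holds the authors' base mean, fold change, standard error, test statistic, p-values and adjusted p-values, which were not used. Strand and multi-mapping settings were not given in the sources used here.

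Samples were grouped by their labels as 2-D or 3-D. Of 60564 identifiers, 60295 matched symbols of GENCODE release 44. The unmatched 269 took up 0.122% of counts. Replicates differed beyond sampling noise (chi-square over degrees of freedom of 2.27 for 2-D, 3.92 for 3-D) and were kept as separate samples. Counts were tested with edgeR 4.0.16 in R 4.3.3 (TMM, default filter on low counts, quasi-likelihood test in legacy mode, condition alone, Benjamini-Hochberg adjustment over 22555 genes, threshold 0.05). The biological coefficient of variation was 5.10%, and standard errors were taken from the test statistic.

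The alternatives were DESeq2 1.42.0, other scalings and filters, a replicate block, offsets for length and GC content from splines with 5 degrees of freedom, edgeR without its legacy mode, limma-trend (limma 3.58.1) on the deposited normalized signal (log2 after adding 1), and leaving out each library. Offsets for length alone and GC content alone were chosen after seeing the data. Length and GC content were known for 99.61% of tested genes.

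Copies were sought by aligning exonic windows of 150 bases, every 50 bases, to hg38 with minimap2 2.31-r1302 (at least 98% identity over at least 90% of the window). Promoter sequences are those of RefSeq. The reported edgeR fit was tested on simulated counts, and the alternative fits were not. Python 3.11.15, pandas 2.3.3, scipy 1.17.1 and matplotlib 3.10.9 were used. All 10 members are named, with every called gene of the related lists and every member of lists of up to 4 genes. Some listed genes are not reported here. Members and lists were chosen with earlier results of these data known.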

Additional observations from a re-analysis of the deposited data

How the results depend on the processing

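All 10 enzymes kept a positive log2 fold change under the 17 alternatives, except NSD1 at -0.011 with library size only. The number called stayed within 1.5 times the 5 reported, except with DESeq2, with library size only and with length and GC offsets (3 each) and when a library was left out (2 to 8). Their median of 0.13 became 0.068 with library size only (-0.065 over all tested genes, so the gap between them was little changed), 0.0945 with length and GC offsets and 0.0944 with these and the replicate block, and ranged from 0.11 to 0.16 without 1 library. Over all tested genes, DESeq2 called 795 in place of 1782 (511 higher, 284 lower), library size only called 514 higher and 1879 lower, and the block with offsets called 1147 lower. Without 1 library the calls ranged from 974 to 2643 (560 to 1468 higher, 414 to 1175 lower). The 974 calls were those without 2-D replicate 2 and the 1186 those without 2-D replicate 1. In such a fit the lone library is assumed to vary like the other condition.

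Over all tested genes, weighted alike whatever their counts, the deviations of same-numbered libraries had a correlation of -0.0079. Whether same-numbered libraries share more than a number was not tested. The replicate block called 7 of the 10 enzymes, adding KMT2D and SETD2, and 2167 genes in all. The log2 ratio differences without 1 library ranged from -0.11 to -0.03 for KMT2A over KMT2B, -0.11 to -0.0040 for KMT2C over KMT2D, 0.13 to 0.19 for SETD1A over SETD1B, 0.11 to 0.20 for CREBBP over EP300 and 0.04 to 0.07 for SETD2 over NSD1. The ratio of the highest to the lowest level per length was 8.10 with merged exons and 3.75 with the longest transcript. Lengths of release 44, a later annotation than that of the counting, and the number of libraries limit these values. The causes were not tested.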
